A study of Rattus norvegicus with 18 samples.

Results

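The miRNAs described here are those made from the transcript antisense to Rtl1 in the imprinted domain between Dlk1 and Dio3. They were chosen by name, as every row of the deposited count table for miR-127, miR-136, miR-431, miR-433 and miR-434, whichever arm of the hairpin the row was for. This gave 9 of the 753 rows, of which 7 were among the 373 miRNAs with enough counts to be tested. The remaining pair, rno-miR-434-3p and rno-miR-434-5p, had no count in any library.

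The libraries came from cervical dorsal root ganglia (DRG), which lie beside the spinal cord and hold sensory neurons and their glia, of 18 adult Lister hooded rats. The naive group (n = 6) was not operated on and received no vector. The other groups had bilateral pyramidotomy (bPYX), in which the corticospinal tracts are cut in the medulla, followed 24 hours later by unilateral injection of an adeno-associated virus of serotype AAV1 into forelimb flexor muscles. That vector carried green fluorescent protein in the bPYX+GFP group (n = 6) and human prepro-neurotrophin-3 in the bPYX+NT3 group (n = 6), in each case behind the CMV promoter, which is active in many cell types. The C6 to C8 ganglia of the treated side were pooled within each rat 10 weeks after surgery, and the injury lay in central axons rather than in the sampled ganglia. No group had the vector without the injury, so the effects of bPYX and of AAV1-GFP cannot be told apart. The comparisons ask which miRNAs differed after injury with the control vector, which differed with neurotrophin-3 among injured rats, and which differed between injured, neurotrophin-3 treated rats and naive rats. These comparisons share libraries and are not independent of each other.

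The domain is imprinted, meaning that the copies inherited from each parent are used differently. The paternal chromosome makes the mRNAs of protein-coding genes such as Dlk1 and Rtl1, a gene derived from a retrotransposon, and the maternal chromosome makes long noncoding transcripts that carry many small RNAs. Among these, a noncoding transcript runs antisense to Rtl1 and holds the 5 hairpins, so its miRNAs are complementary to the Rtl1 mRNA and can direct its cleavage, besides acting on other mRNAs through their seeds as miRNAs usually do. The domain's miRNAs are abundant in the nervous system, and miR-431 is known from work on the regrowth of injured sensory axons.

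In the RefSeq annotation of rat build GRCr8 the 5 hairpins lay on chromosome 6, on the plus strand, in the order Mir431, Mir433, Mir127, Mir434 and Mir136. They spanned 4968 bases, all of them inside the interval of Rtl1 at chr6:134325231-134335780. The counts themselves were made on an older build, Rnor_5.0, so these positions serve to place the miRNAs and were not used for counting. RefSeq had a mature sequence for 7 of the 9 rows, and rno-miR-127-5p and rno-miR-136-5p are given by name only.

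The mature sequences are shown 5′ to 3′ because the members differ in what they could pair with. Capitals mark the seed, bases 2 to 8, through which a miRNA mainly recognises mRNAs.
rno-miR-431: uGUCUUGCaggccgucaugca
rno-miR-433-5p: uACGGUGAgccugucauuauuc
rno-miR-433-3p: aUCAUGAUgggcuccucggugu
rno-miR-127-3p: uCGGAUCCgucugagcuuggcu
rno-miR-434-5p: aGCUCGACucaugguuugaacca
rno-miR-434-3p: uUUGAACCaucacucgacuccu
rno-miR-136-3p: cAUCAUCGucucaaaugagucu

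The 7 seeds were all distinct, and no other rat mature miRNA in RefSeq had any of them. These 7 members therefore have no seed in common. The 5 rows with positions that were also detected lay at chr6:134326468-134326488 (rno-miR-431), chr6:134327369-134327390 (rno-miR-433-5p), chr6:134327421-134327442 (rno-miR-433-3p), chr6:134328510-134328531 (rno-miR-127-3p) and chr6:134331383-134331404 (rno-miR-136-3p). The Mir433 hairpin at chr6:134327358-134327450, shown because the ratio of its arms is compared between groups, is printed with its 5p arm and then its 3p arm in capitals.
Mir433 hairpin: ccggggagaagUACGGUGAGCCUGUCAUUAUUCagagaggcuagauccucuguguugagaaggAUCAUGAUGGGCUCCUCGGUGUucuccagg

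Libraries held 4.70 ± 0.663 M miRNA counts (SD, n = 18), from 3.88 to 6.92 M. Levels are given as CPM, counts per M miRNA counts after TMM scaling, a scaling between libraries that assumes most miRNAs do not differ. Among marker miRNAs, the sensory neuron cluster miR-183, miR-96 and miR-182 summed to 23687 to 31050 CPM in naive rats, 29014 to 33155 CPM with GFP and 25963 to 32995 CPM with NT3, with 1 of its 5 rows at 0. Glial miRNAs (miR-338, miR-219a, miR-204; 3 of 7 rows at 0) summed to 5543 to 12336 CPM over all rats, and blood and immune miRNAs (8 rows, none at 0) to 343 to 1465 CPM. Of the glial rows only rno-miR-204-5p, rno-miR-204-3p and rno-miR-219a-1-3p had enough counts to be tested. The glial sum therefore does not speak for miR-338. Skeletal muscle miRNAs (4 of 8 rows at 0) stayed between 71.5 and 336 CPM. The markers of neurons in general, miR-124 and miR-9a (1 of 4 rows at 0), were low, between 0.383 and 2.54 CPM. They thus differed from the sensory neuron cluster, and why they were low was not tested.

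The 9 rows together took 1.39 ± 0.131% of all miRNA counts (SD, n = 18; lowest 1.18%, highest 1.67%). Naive rats had 1.32 ± 0.0985%, bPYX+GFP rats 1.43 ± 0.140% and bPYX+NT3 rats 1.43 ± 0.137% (SD, n = 6 each), with overlapping ranges. rno-miR-127-3p alone made up 79.0 ± 1.05% of the members' counts, so the summed share mostly follows that miRNA.

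Mature miRNAs are of nearly equal length and each read is counted for 1 of them, so levels of different miRNAs are set side by side as CPM without a length correction, although miRNAs can differ in how well they enter a library. rno-miR-127-3p, a miRNA known to act on the transcriptional repressor Bcl6, ranked 17 among all rows by mean level, at 10990 ± 727 CPM (SD, n = 18). rno-miR-433-3p followed at 1782 ± 188 CPM (rank 43), then rno-miR-136-5p at 465 ± 57.0 CPM (rank 94). The less used arms came next, rno-miR-136-3p at 260 ± 26.0 CPM (rank 118) and rno-miR-127-5p at 222 ± 20.3 CPM (rank 121). rno-miR-431, listed without an arm, had 150 ± 26.2 CPM (rank 141), and rno-miR-433-5p had 46.4 ± 7.72 CPM (rank 205).

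The order of levels was nearly fixed between rats. rno-miR-136-3p and rno-miR-127-5p had overlapping ranges, the former being higher in 16 of 18 libraries, and rno-miR-127-5p exceeded rno-miR-431 in 17 of 18 with overlapping ranges. Every other pair of neighbours in the order had ranges that did not overlap. From hairpins on a common transcript, the most and the least abundant of the 7 mature miRNAs differed 237-fold in mean level.

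**Figure D1:**
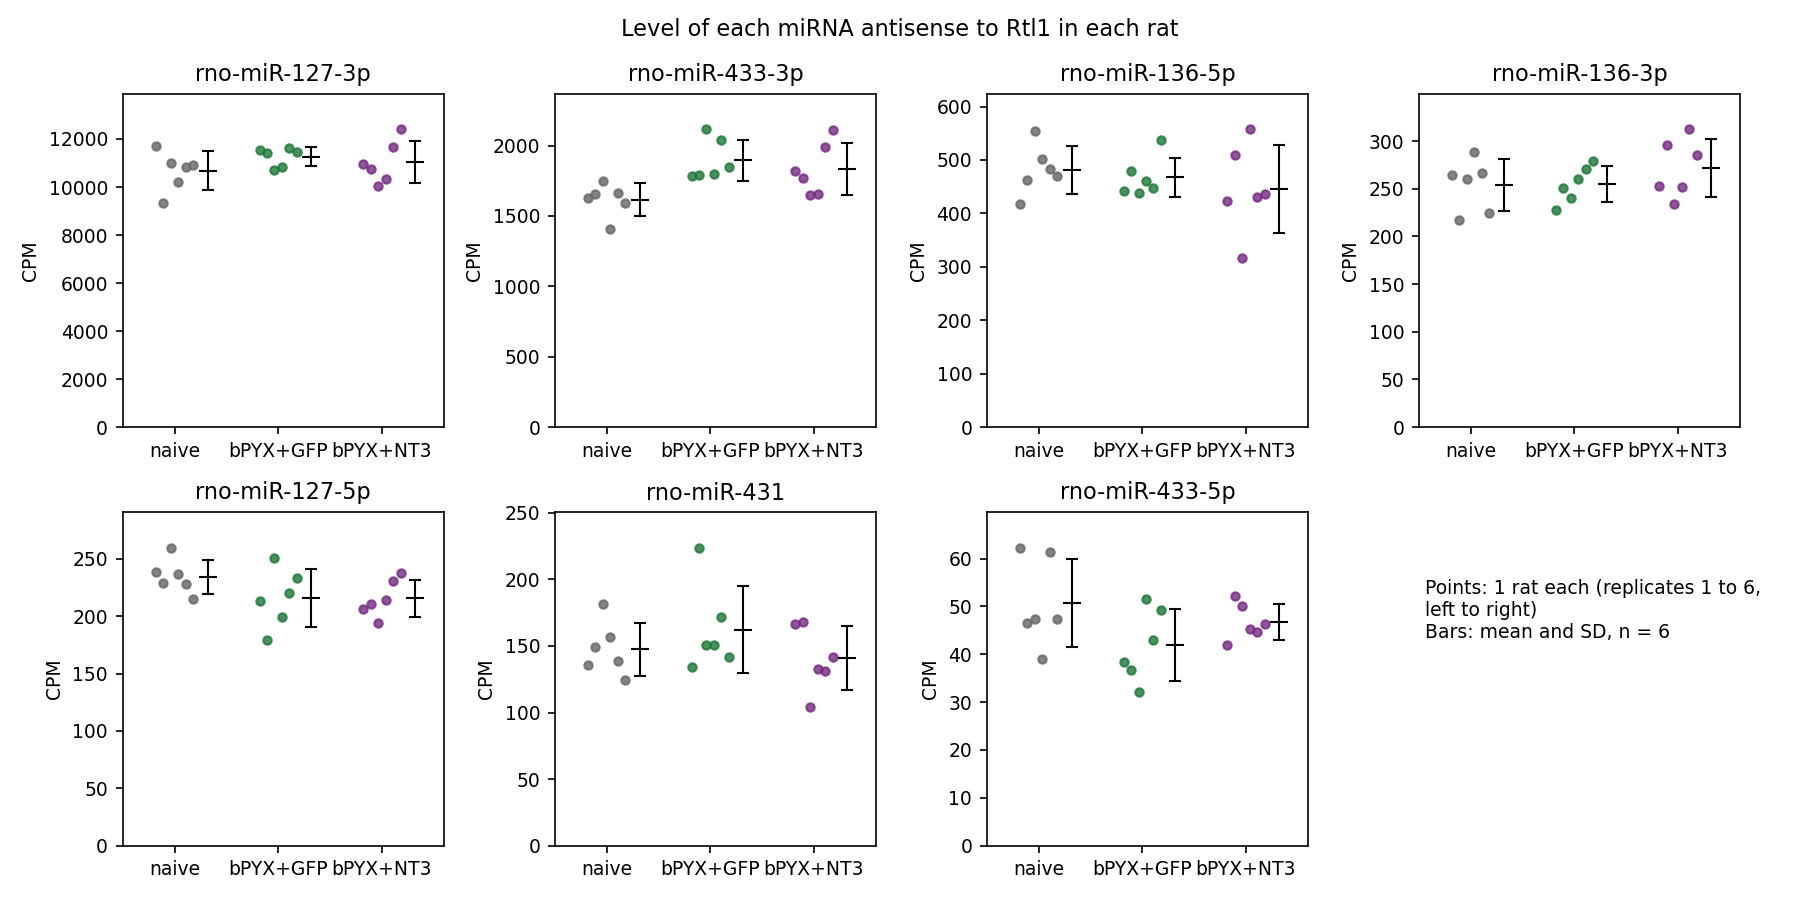
Level of the 7 detected miRNAs in each rat, in CPM after TMM scaling on a linear axis from 0, by group; points are rats, and bars give the mean and SD of 6. For rno-miR-433-3p every bPYX+GFP rat (1781 CPM or more) lies above every naive rat (1752 CPM or less), and for the other miRNAs these groups overlap.

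Variation between rats differed by member and was not tested against that of other miRNAs. The median coefficient of variation over the 18 libraries was 10.5% for the 7 members, 16.1% for all 373 tested miRNAs and 12.8% for the 167 of these with a mean over 100 CPM. Among the members it was lowest for rno-miR-127-3p (6.62%) and highest for rno-miR-431 (17.5%). Both rno-miR-431 and rno-miR-433-5p (16.6%) lay above the median of all tested miRNAs. Counting error at the median depth came to 0.440% for rno-miR-127-3p and 6.85% for rno-miR-433-5p, the member with the fewest counts (169 to 315 per library), against an observed 16.6% for the latter. The spread between rats exceeded counting error for each of the 7 members.

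After injury with the control vector, 1 of 7 tested miRNAs antisense to Rtl1 had groups that did not overlap (4.02% of all 373 tested), and none passed edgeR's adjusted threshold (2.41% of all). rno-miR-433-3p, the guide arm of its hairpin, ranged from 1407 CPM (median 1642) to 1752 CPM in naive rats. In bPYX+GFP rats it ranged from 1781 CPM (median 1824) to 2116 CPM. All 6 bPYX+GFP rats lay above the highest naive rat, and the mean was 1896 ± 144.5 against 1616 ± 115 CPM (SD, n = 6 each). The log2 fold change was 0.23 ± 0.07 (SE), a ratio of mean levels of 1.17, with an unadjusted p of 0.00394 by edgeR's quasi-likelihood test and an adjusted p of 0.0806 (Benjamini-Hochberg, over all 373 miRNAs). It thus missed the threshold of 0.05 for an adjusted p, although the groups did not overlap.

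That call rested on the tool. The DESeq2 Wald test gave rno-miR-433-3p an adjusted p of 0.0380, and over 21 alternatives the adjusted p ran from 0.0380 to 0.170 with log2 fold changes of 0.19 to 0.26. Summed markers of the sensory neuron cluster were 30804 ± 1788 CPM in bPYX+GFP against 27264 ± 2749 CPM in naive rats (SD, n = 6 each), and their part in the difference was not tested. In bulk ganglia, moreover, a change in the number of cells of a type and a change in RNA per cell cannot be told apart.

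The other 6 tested members had ranges that overlapped between bPYX+GFP and naive rats. The opposite arm, rno-miR-433-5p, was found at 38.9 CPM (median 47.4) to 62.3 CPM in naive rats and at 32.1 CPM (median 40.8) to 51.6 CPM after injury with GFP, and 3 bPYX+GFP rats lay below the lowest naive rat. Its log2 fold change was -0.28 ± 0.14 (SE; adjusted p = 0.280 by edgeR), opposite in sign to that of the 3p arm. The dominant miRNA, rno-miR-127-3p, went from 9321 CPM (median 10870) to 11727 CPM in naive and from 10718 CPM (median 11446) to 11625 CPM in bPYX+GFP rats. Its bPYX+GFP levels lay within the naive range, and the log2 fold change was 0.08 ± 0.06 (SE; edgeR adjusted p = 0.520).

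rno-miR-431, the member tied to axon regrowth, ranged from 124.2 CPM (median 143.96) to 181.4 CPM in naive and from 134.2 CPM (median 150.9) to 223.8 CPM in bPYX+GFP rats. Only 1 bPYX+GFP rat, replicate 2, exceeded the highest naive rat. The log2 fold change was 0.14 ± 0.13 (SE; edgeR adjusted p = 0.612), about the size of its error, and ran from 0.02 without that rat to 0.20 without naive replicate 3. For rno-miR-127-5p, rno-miR-136-3p and rno-miR-136-5p the log2 fold changes were -0.12 ± 0.09, 0.01 ± 0.09 and -0.04 ± 0.08 (SE), with edgeR adjusted p of 0.469, 0.983 and 0.833. A change of 0.01 carries no direction, and leaving out some single libraries or computing the TMM factors without the domain changed its sign.

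Counted over the members, none of 7 passed an adjusted p of 0.05 by edgeR in bPYX+GFP against naive, when 2.41% of all 373 tested miRNAs passed. By DESeq2, 1 of 7 passed, when 7.01% of the 328 miRNAs it gave an adjusted p passed. At an unadjusted p of 0.05, the criterion of the study, 1 of 7 passed (rno-miR-433-3p, higher) against 21.2% of all miRNAs. Groups failed to overlap for that same member, 1 of 7, against 4.02% of all. The share of members past the unadjusted threshold was thus not above the background, and with 7 members a count of 1 says little about the set. The median log2 fold change was 0.01 over the members and 0.00 over all tested miRNAs.

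With neurotrophin-3, compared with GFP among injured rats, no member differed beyond the spread between rats. rno-miR-433-3p ranged from 1647 CPM (median 1798) to 2112 CPM in bPYX+NT3 rats, with 3 of these below the lowest bPYX+GFP rat and none above the highest. Its log2 fold change was -0.04 ± 0.08 (SE; edgeR adjusted p = 0.878). rno-miR-433-5p lay between 42.0 CPM (median 45.8) and 52.2 CPM in bPYX+NT3 rats, all 6 above the bPYX+GFP mean of 41.9 CPM. Its change was 0.17 ± 0.12 on the log2 scale (SE; edgeR adjusted p = 0.668), and ran from 0.096 to 0.227 without single libraries.

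rno-miR-431 lay at 104 CPM (median 137) to 168 CPM in bPYX+NT3 rats. With 3 of 6 rats below the lowest bPYX+GFP rat, its log2 fold change was -0.21 ± 0.15 (SE; edgeR adjusted p = 0.668). This estimate was -0.07 without bPYX+GFP replicate 2, the rat with the highest rno-miR-431. rno-miR-127-3p ranged from 10046 CPM (median 10855) to 12405 CPM in bPYX+NT3 rats and differed by -0.02 ± 0.07 on the log2 scale (SE; edgeR adjusted p = 0.912). That range contained every bPYX+GFP value. The changes of rno-miR-127-5p, rno-miR-136-3p and rno-miR-136-5p were 0.01 ± 0.08, 0.10 ± 0.09 and -0.06 ± 0.11 (SE), with adjusted p of 0.979, 0.734 and 0.878.

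None of the 7 members passed an adjusted p of 0.05 by edgeR or by DESeq2 in bPYX+NT3 against bPYX+GFP, and none passed an unadjusted p of 0.05. Over all 373 miRNAs 0% passed the adjusted threshold by edgeR, as did 0% of 372 by DESeq2, and 8.58% passed the unadjusted threshold by edgeR, and 0% had groups that did not overlap. The groups overlapped for each of the 7 members. The signs of the small changes in rno-miR-127-3p and rno-miR-127-5p turned with the scaling or the filter.

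Between bPYX+NT3 and naive rats, rno-miR-433-3p was the member furthest from naive. All 6 bPYX+NT3 rats were above the naive mean and 4 were above the highest naive rat, and the ranges overlapped. The log2 fold change was 0.18 ± 0.08 (SE; adjusted p = 0.349 by edgeR, with an unadjusted p of 0.0378). Leaving out naive replicate 1 or 4 or bPYX+NT3 replicate 5 or 6 raised the unadjusted p above 0.05, to at most 0.1002. With the replicate number as a block it was also above 0.05, although these numbers did not pair the rats. Summed markers of the sensory neuron cluster were 30402 ± 2538 CPM in bPYX+NT3 rats, also above the naive mean of 27264 CPM. Rows of that cluster differed in sign. The log2 fold changes of rno-miR-182 (0.19 ± 0.09 SE) and rno-miR-183-3p (0.25 ± 0.12) were above 0. Those of rno-miR-96-5p (-0.04 ± 0.10) and rno-miR-96-3p (-0.19 ± 0.23) were below 0. Summed glial markers, with no miR-338 row among those tested, were 7968 ± 1950 CPM in bPYX+NT3 and 9287 ± 1678 CPM in naive rats (SD, n = 6 each). Ranges overlapped for both sets of markers, and their part in the rno-miR-433-3p difference was not tested either. As the naive libraries are those of the comparison with bPYX+GFP, this is not a separate sighting of the difference.

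The other members' log2 fold changes in this comparison lay between -0.12 and 0.10, with edgeR adjusted p from 0.463 to 0.834. rno-miR-127-5p had 194 CPM (median 213) to 238 CPM in bPYX+NT3 and 215 CPM (median 233) to 260 CPM in naive rats. For this miRNA 4 bPYX+NT3 rats fell below the lowest naive rat, and the log2 fold change was -0.12 ± 0.08 (SE). It ran from -0.15 to -0.069 without single libraries and from -0.12 to -0.056 under the other alternatives. rno-miR-136-5p spread most in the bPYX+NT3 group, from 316.5 CPM (median 432.7) to 557.5 CPM (coefficient of variation 18.5%), against 417.5 CPM (median 476.6) to 554.1 CPM in naive rats. bPYX+NT3 replicate 3 gave the lowest value of this group for rno-miR-136-5p, rno-miR-136-3p, rno-miR-431, rno-miR-433-3p, rno-miR-127-3p and rno-miR-127-5p. Without TMM scaling the members' summed share in that library, 1.43%, was the same as the mean of its group. That share mostly follows rno-miR-127-3p. The raw counts of rno-miR-136-5p (1493) and rno-miR-431 (490) were still the lowest of the group there, in a library of 4.15 M miRNA counts. None of the 7 members passed an adjusted p of 0.05 by edgeR or DESeq2 (0% of all 373 by edgeR, 0.269% of 372 by DESeq2), 1 passed an unadjusted p of 0.05 (13.7% of all), and none had groups without overlap (1.34% of all).

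**Figure D2:**
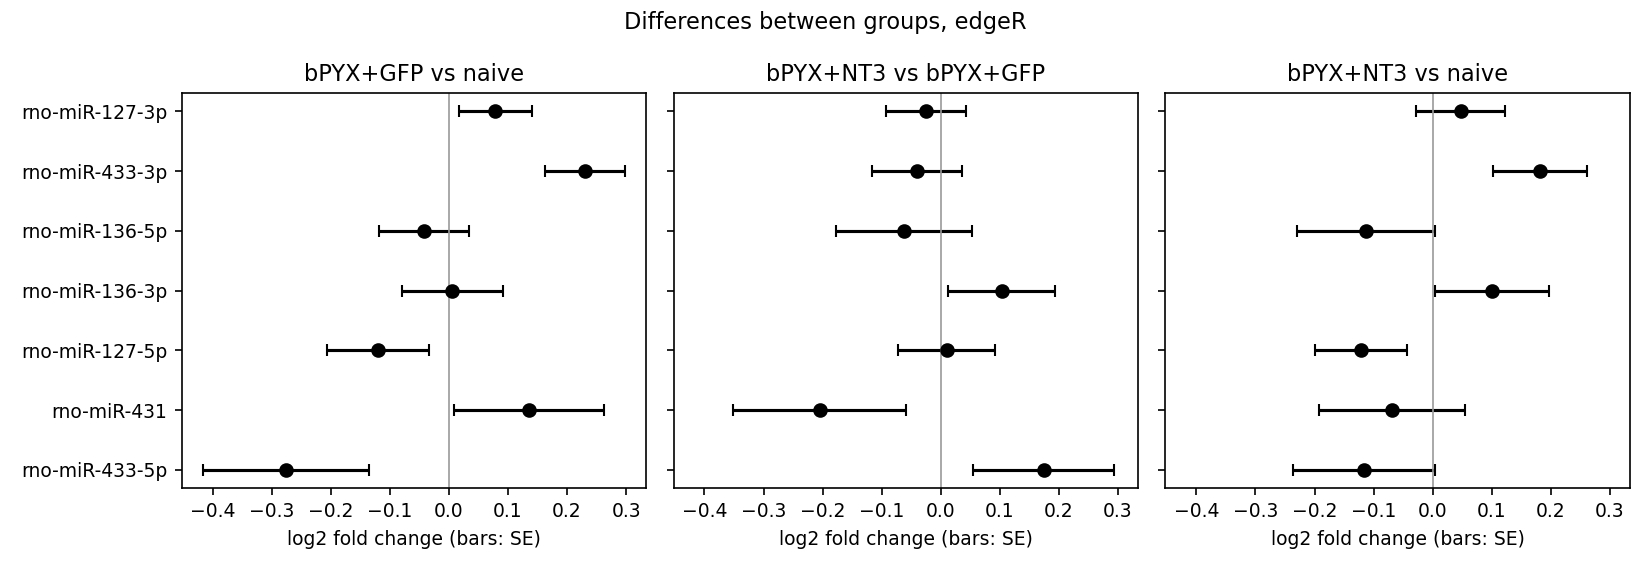
Log2 fold change of each detected miRNA in the 3 comparisons by edgeR, the group named before vs minus the other; points are estimates and bars the SE. rno-miR-433-3p lies furthest above 0 in the comparisons with naive (0.23 and 0.18), and rno-miR-433-5p lies below 0 there (-0.28 and -0.12). For rno-miR-433-5p in bPYX+NT3 against naive the estimate ran from -0.18 to -0.030 without single libraries. Under the other alternatives it ran from -0.12 to -0.050.

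The arms of a hairpin are cut from a common precursor, and the ratio of their reads within a library needs no scaling between libraries. Ratios were formed for the 3 hairpins with both arms counted, as log2 of 3p over 5p counts with a pseudocount of 0.5, and group means were compared by a two-sided exact permutation test over all assignments of the 12 libraries, whose smallest possible p is 0.00216. Adjustment (Benjamini-Hochberg) covered 114 precursors in 3 comparisons, 342 tests in all. The 3p arm dominated in miR-127 (49.9 ± 5.46 reads per 5p read, SD, n = 18) and miR-433 (39.6 ± 9.33), and the 5p arm in miR-136 (0.567 ± 0.0830 3p reads per 5p read). No library departed from these preferences.

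For miR-433 the 3p to 5p ratio was 26.1 (median 34.6) to 36.9 in naive rats, 34.8 (median 46.8) to 66.0 with GFP and 32.9 (median 40.0) to 45.6 with NT3. The ratio was above the highest naive rat in 5 of 6 bPYX+GFP and in 3 of 6 bPYX+NT3 rats. The difference between bPYX+GFP and naive was 0.50 ± 0.16 on the log2 scale (SE, n = 6 each; exact permutation p = 0.0130, adjusted p = 0.171), and that between bPYX+NT3 and naive was 0.28 ± 0.12 (exact permutation p = 0.0584, adjusted p = 0.286). bPYX+NT3 and bPYX+GFP differed by -0.22 ± 0.16 (exact permutation p = 0.182, adjusted p = 0.490), and by -0.30 to -0.12 without single libraries. In bPYX+GFP against naive the estimate for the 3p arm was above 0 and that for the 5p arm below 0. Of the 114 precursors 9 had a larger upward shift, and 12 had a larger shift in either direction.

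For miR-127 the ratio was 40.8 (median 45.3) to 50.7 in naive rats, 42.8 (median 53.4) to 63.8 with GFP and 48.2 (median 51.4) to 53.1 with NT3. It exceeded the highest naive rat in 4 of 6 rats of each injured group. The log2 difference from naive was 0.21 ± 0.09 in bPYX+GFP (SE, n = 6 each; exact permutation p = 0.0498, adjusted p = 0.269) and 0.17 ± 0.06 in bPYX+NT3 rats (exact permutation p = 0.0130, adjusted p = 0.171). In miR-136 the ratio was 0.469 (median 0.515) to 0.633 in naive rats, 0.515 (median 0.535) to 0.604 with GFP and 0.452 (median 0.6254) to 0.738 with NT3. All 3 groups overlapped for miR-136, and its differences of 0.05 ± 0.08, 0.18 ± 0.11 and 0.23 ± 0.13 (bPYX+GFP minus naive, bPYX+NT3 minus bPYX+GFP, bPYX+NT3 minus naive) had exact permutation p of 0.558, 0.147 and 0.117 (n = 6 each).

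No arm ratio passed an adjusted p of 0.05, for the members or for any precursor (0% in each of the 3 comparisons). At an unadjusted p of 0.05 the ratio of 2 of 3 member hairpins passed in bPYX+GFP against naive, when 21.9% of all precursors did, none in bPYX+NT3 against bPYX+GFP (12.3% of all), and 1 of 3 in bPYX+NT3 against naive (21.1% of all). In bPYX+GFP against naive, miR-127 stayed under 0.05 in 3 of 12 leave-outs (those of naive replicates 1 and 6 and of bPYX+GFP replicate 3) and rose to an exact permutation p of at most 0.108 in the other 9, where miR-433 alone passed. Leaving out bPYX+NT3 replicate 4 took miR-136 to an exact permutation p of 0.00866 against bPYX+GFP and 0.0216 against naive, and leaving out bPYX+NT3 replicate 3 took miR-433 to 0.0390 against naive. The share of all precursors under 0.05 in these leave-outs is not given here, so such gains and losses have no background beside them. Over all precursors the median log2 difference was 0.05, -0.06 and 0.06, against 0.50, -0.22 and 0.28 for miR-433.

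**Figure D3:**
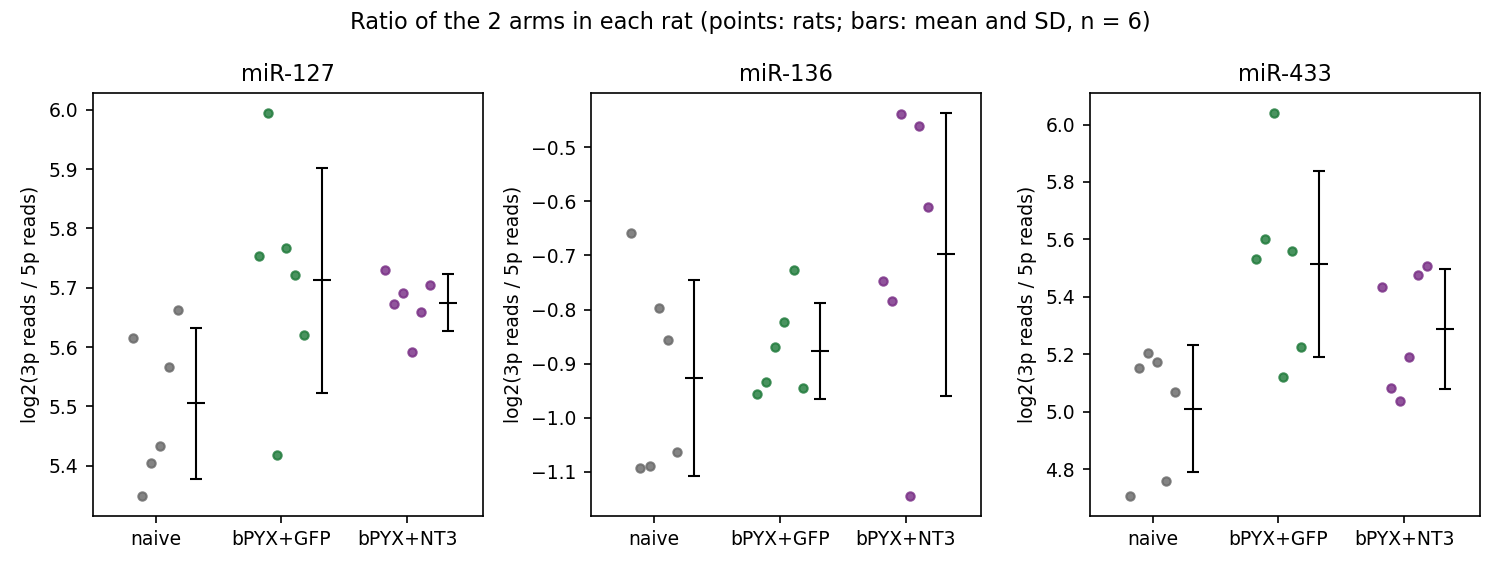
Ratio of 3p to 5p reads of miR-127, miR-136 and miR-433 in each rat, on a log2 axis that does not start at 0; points are rats and bars the mean and SD of 6. In miR-433, 5 of 6 bPYX+GFP rats lie above the highest naive rat, and in miR-136 all groups overlap.

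Because rno-miR-127-3p and rno-miR-433-3p come from neighbouring hairpins, their ratio was also formed within each library. rno-miR-433-3p amounted to 15.2 ± 1.51% of rno-miR-127-3p in naive rats (SD, n = 6; 13.8 to 17.8%), 16.9 ± 1.60% with GFP (15.5 to 19.7%) and 16.6 ± 0.377% with NT3 (16.1 to 17.0%). The ranges of this ratio overlapped between all groups, and no test was made on it.

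Neighbours in the domain were taken as 2 lists. The 16 other rows placed before the miR-379 to miR-410 cluster (miR-770, miR-673, miR-493, miR-337, miR-540, miR-665, miR-370, miR-341 and miR-1188) had 15 tested, and the 69 rows of that cluster had 50 tested. In bPYX+GFP against naive, 1 was higher and 3 were lower of the former at an unadjusted p of 0.05, and 5 were higher and 5 lower of the latter, when 21.2% of all 373 miRNAs passed that threshold. These counts, 4 of 15 and 10 of 50, were near that background. By edgeR's adjusted p, which 2.41% of all passed, rno-miR-370-3p (log2 fold change -0.36 ± 0.09 SE, adjusted p = 0.0443) and rno-miR-381-3p (-0.35 ± 0.07, adjusted p = 0.0218) fell, and rno-miR-379-3p (0.94 ± 0.13, adjusted p = 0.00155) and rno-miR-496-3p (0.45 ± 0.11, adjusted p = 0.0315) rose. The median log2 fold changes were -0.01 and -0.01 for the lists, close to the 0.01 of the members. For 8 tested neighbours RefSeq gave no hairpin under their name, so the plot along the domain leaves them out. They include rno-miR-3072, named after its values were seen, which had the most negative estimate of the cluster in bPYX+GFP against naive (-0.58 ± 0.19 SE, edgeR adjusted p = 0.112).

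In bPYX+NT3 against bPYX+GFP, 1 of 15 was higher and none lower before the cluster (rno-miR-341, 0.20 ± 0.08 SE, edgeR adjusted p = 0.433), and 1 of 50 was higher and 2 lower within it, rno-miR-379-3p differing by -0.50 ± 0.16 (adjusted p = 0.217), when 8.58% of all miRNAs passed an unadjusted p of 0.05. In bPYX+NT3 against naive, 2 of 15 were higher and 2 lower before the cluster, and 3 of 50 were higher and 1 lower within it, all at an unadjusted p of 0.05, which 13.7% of all passed. None of these passed an adjusted p of 0.05 by edgeR. rno-miR-770-5p was at 0.77 ± 0.24 (bPYX+GFP) and 0.62 ± 0.18 (bPYX+NT3) against naive (adjusted p = 0.0894 and 0.191).

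**Figure D4:**
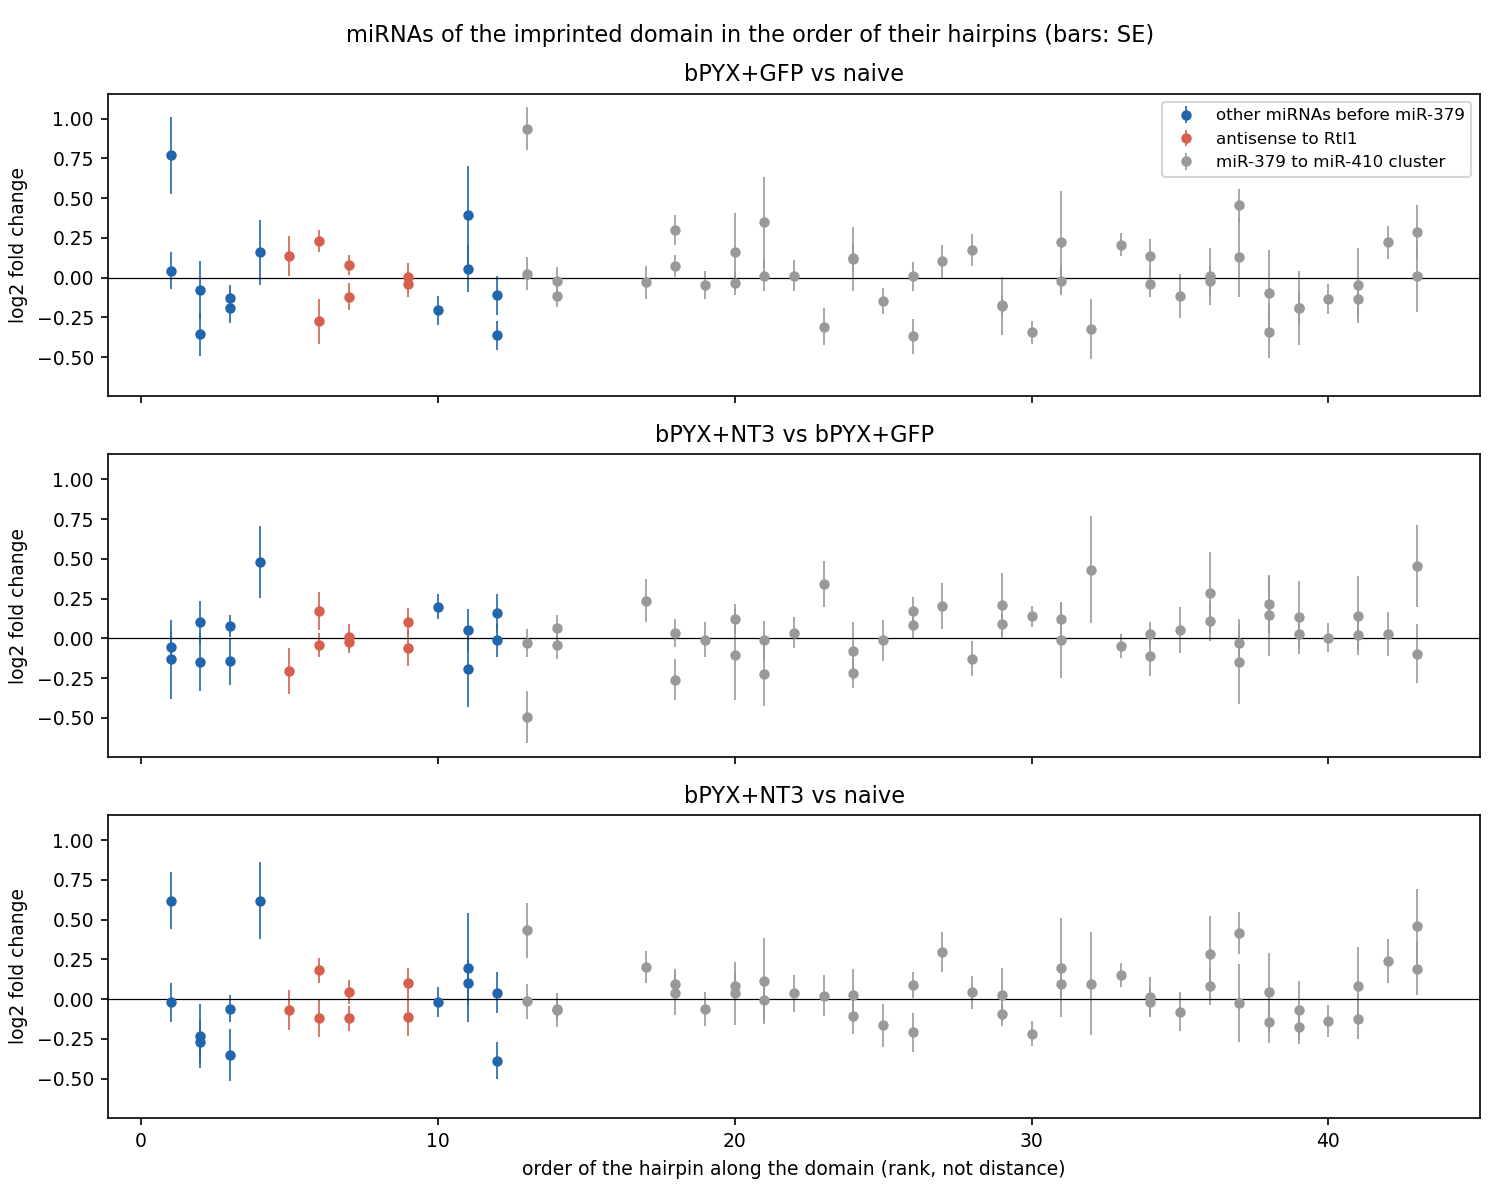
Log2 fold change in the 3 comparisons of the 7 members and of the 57 of 65 tested neighbours whose hairpin was found in RefSeq, by the rank of the hairpin from the Dlk1 end to the Dio3 end; bars are the SE, and both arms of a hairpin share a rank. The miRNAs antisense to Rtl1 stay between -0.28 and 0.23, and rno-miR-379-3p reaches 0.94 in bPYX+GFP against naive.

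How the members varied together was described over the 18 libraries, on log2(CPM + 1) after subtracting group means, without a test since all values share library depth and scaling. Over the 21 pairs of members the median Pearson r was 0.23 (-0.28 to 0.64), and 15 pairs were above 0. Arms of a common hairpin lay within that range, with r of 0.30 for miR-127, 0.38 for miR-136 and -0.03 for miR-433. For each member the median r with all tested miRNAs lay between -0.03 and 0.07. With its neighbours in the domain the median lay between 0.05 and 0.20, and with the other members between -0.04 and 0.34. The miRNAs most like rno-miR-127-3p were rno-miR-329-3p of the downstream cluster (r = 0.73, Spearman's rho = 0.81; r = 0.85 without the 2 libraries farthest from the median), rno-miR-32-3p (r = 0.70), rno-miR-3102 (r = 0.69), rno-miR-216a-5p (r = 0.69) and rno-miR-129-1-3p (r = 0.69). Of these 5 miRNAs 1 was from the domain, whose other miRNAs are 17.4% of those tested. The highest r of any member with a miRNA from another hairpin, picked after the values were seen, was 0.88 between rno-miR-136-5p and its domain neighbour rno-miR-493-3p (rho = 0.72; r = 0.72 without the 2 libraries farthest from the median). For rno-miR-433-3p it was 0.76 with rno-miR-125a-5p, a miRNA encoded elsewhere (rho = 0.74; r = 0.63 without 2 libraries).

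The pair rno-miR-434-3p and rno-miR-434-5p could not be compared between groups. Both were at 0 counts in all 18 libraries, where 3 counts, the limit that a count of 0 allows, correspond to 0.434 to 0.773 CPM of the library total without TMM scaling. In all, 181 of the 753 rows (24%) were at 0 in every library. The Mir434 hairpin lies between Mir127 and Mir136, whose rows all had counts. Reads of too low an alignment quality made up 31.4 ± 1.88% of all reads (SD, n = 18) and were given to no miRNA. Whether reads of miR-434 were among them was not tested, so the zeros show only that no read was counted for these rows.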

How the data were processed

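Small RNA was sequenced from pooled C6 to C8 ganglia of each rat. The authors trimmed adapters, aligned reads to Rnor_5.0 with Bowtie2 and counted them with HTSeq, and per the labels base calls were converted with bcl2fastq 1.8.4. The deposited values are raw counts per mature miRNA, not normalized. The release of the miRNA annotation is not given in the sources used here. The 5 rows of reads given to no miRNA entered neither library sizes nor tests. Among these, reads of low alignment quality took 28.0 to 35.1% of all reads, so miRNAs with near copies can be undercounted.

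Each library is 1 rat, and groups were taken from the labels. Library pairs differed by far more than sampling noise. miRNAs with more than 10 counts in at least 6 of 18 libraries were fitted with edgeR 4.0.16 in R 4.3.3 (TMM scaling, quasi-likelihood test) on the 12 libraries of each comparison, and p-values were adjusted over all 373. The alternatives were DESeq2 1.42.0, 3 other scalings, 2 other filters, the edgeR likelihood ratio test, a fit of all 3 groups, the replicate number as a block, a pseudocount of 5 for arm ratios, and leaving out each library. The procedure was also run on simulated data, whose values are not given here. The study left out 1 rat as an outlier; all rats were kept here.

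All rows of the 5 hairpins are named. By rule, at most 3 neighbours per list and comparison were named, those of smallest unadjusted p. So were the 5 miRNAs most like the most abundant member. Named outside that rule were rno-miR-3072, for its estimate, and rno-miR-493-3p and rno-miR-125a-5p, each the miRNA most like another member. The members and lists were chosen with earlier results of these data known.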

Additional observations from a re-analysis of the deposited data

How the results depend on the processing

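No member passed an adjusted p of 0.05 in any comparison or alternative, except that DESeq2 called 1 member, rno-miR-433-3p, in bPYX+GFP against naive. The number at an unadjusted p of 0.05 there was 2 in the fit of all 3 groups and 1 to 2 when single libraries were left out (2 without naive replicate 4 or bPYX+GFP replicate 4 or 6). Of all 373 miRNAs, 69 passed in that fit of 3 groups, and 76, 68 and 78 passed without those libraries in turn, against 79 with all libraries. In bPYX+NT3 against naive it was 0 to 1 when single libraries were left out (0 without naive replicate 1 or 4 or bPYX+NT3 replicate 5 or 6, where 51, 45, 37 and 46 of all miRNAs passed, against 51 with all libraries). Replicate numbers did not pair the rats, since same-numbered libraries correlated at -0.41 to 0.39 and matched their own number best in 1, 2 and 2 of 6 cases in the 3 comparisons. With the replicate number as a block, members at an unadjusted p of 0.05 fell to 0 in bPYX+NT3 against naive, where 48 of all miRNAs passed, and no other member count changed. Values near 0 changed sign. In bPYX+GFP against naive, rno-miR-136-3p was at -0.0071 with TMM factors computed without the domain and at -0.035 to 0.046 without single libraries, and rno-miR-136-5p was at -0.086 to 0.0015 without single libraries. In bPYX+NT3 against bPYX+GFP, rno-miR-127-3p was at 0.0068 with library size only and at 0.0050 with TMM factors computed without the domain. rno-miR-127-5p was at -0.0077 with no detection filter, at -0.0016 in the fit of all 3 groups and at -0.025 to 0.043 without single libraries, and the miR-127 arm ratio was at -0.097 to 0.019. In bPYX+NT3 against naive, rno-miR-431 was at -0.11 to 0.0048. The cause of these shifts was not tested. Over all miRNAs, those past an adjusted p of 0.05 in bPYX+GFP against naive numbered 9, 23 by DESeq2, and 3 to 20 without single libraries (20 without naive replicate 2, 3 without naive replicate 4 or bPYX+GFP replicate 1). In bPYX+NT3 against naive they numbered 0, 1 by DESeq2, by the likelihood ratio test and in the fit of all 3 groups, and up to 4 without bPYX+NT3 replicate 4. At an unadjusted p, bPYX+NT3 against bPYX+GFP had 32 miRNAs, 54 with no detection filter and 54 without bPYX+NT3 replicate 4, and bPYX+NT3 against naive had 51, and 32 without bPYX+NT3 replicate 3. Other scalings moved the median of all log2 fold changes by at most 0.07.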
